A study of Homo sapiens with 3 samples.

Results

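Collagen chain genes encode the polypeptides that wind together, 3 at a time, into the collagens of the extracellular matrix. The genes were chosen by symbol (COL, a number, A, a number), without antisense genes and pseudogenes, from the Entrez identifiers in any of the 3 deposited tables. This gave 39 genes of 18331 identifiers, of which 21 passed the filter on low counts and were tested. Messenger RNA had been sequenced from PC-3 cells, a line long kept in culture from a human prostate cancer. The libraries labelled KMT2D shRNA, numbered 1 and 2, came from cells given lentivirus that expressed short hairpin RNA (shRNA) against KMT2D, a histone methyltransferase of enhancers. The library labelled control shRNA came from cells given control shRNA lentivirus. All 3 libraries were collected 7 days after infection. The labels do not say whether the KMT2D shRNA libraries were separate cultures or different hairpins, so p-values measure only the spread between these samples, which may be technical. The control had no replicate and was assumed to vary like the other group.

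Collagens differ by how they assemble. Fibrillar collagens form cable-like fibrils, type IV collagens form the sheet-like network of basement membranes, and type VI collagen forms beaded microfibrils around cells. Fibril-associated collagens decorate the fibrils, and others anchor membranes or span the cell membrane. Epithelia are known to make basement membrane collagens, while much of the fibrillar collagen of a tumour is known to come from its fibroblasts.

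In scaled counts KMT2D itself did not fall below the control under KMT2D shRNA, at 107 and 138 CPM (counts scaled to library size, comparable between libraries but not between genes) against 100.1 CPM in the control (log2 fold change 0.29, edgeR quasi-likelihood adjusted p = 0.227, or -0.69 and adjusted p = 0.00701 after length adjustment, that is, with the trend of fold change on transcript length taken out). The adjusted value places KMT2D below the length trend and does not by itself show less KMT2D RNA than in the control. All directions are given by the labels of the libraries. Library totals were 5157482 and 5123794 counts for KMT2D shRNA libraries 1 and 2 and 5559449 for the control. All 5 genes of the epithelial list were present in every library (summing to 836 and 881 CPM in KMT2D shRNA libraries 1 and 2 and to 1432 CPM in the control). KRT8, KRT18 and KRT19 were called lower (edgeR adjusted p = 0.00169, 3.84e-05 and 0.000219), beside 14.5% of all tested genes. EPCAM and CDH1 were not called, and CDH1 had a positive log2 fold change of 0.51. After length adjustment 1 of the 5 was called lower, beside 9.14% of all tested genes. Of the 5 fibroblast markers listed in the tables, PDGFRA had 204 and 239 counts in the KMT2D shRNA libraries against 57 in the control, PDGFRB had 8 and 1 against 1, and DCN, FAP and LUM had at most 3 counts in any library. Of the endothelial markers, KDR had 606 and 421 counts in the KMT2D shRNA libraries against 268 in the control and PECAM1 had 101 and 96 against 112; TEK had 1 and 2 against 3, while VWF and CDH5 were not analysed here. The 16 interferon response genes summed to 707 and 713 CPM in the KMT2D shRNA libraries, against 14880 CPM in the control, and all 16 passed as lower. The part of these differences in the collagen values was not tested.

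Collagen RNA of PC-3 cells was mostly type VI. The deposited FPKM values (fragments scaled to transcript length and library size, so that genes can be compared per length) of COL6A1 were 1188 and 1436 in KMT2D shRNA libraries 1 and 2, against 892 in the control. COL6A1 was the gene with the most counts of all genes in both KMT2D shRNA libraries (rank 1), and stood at rank 8 in the control. The 3 type VI genes held 0.988% and 1.15% of all counts in the KMT2D shRNA libraries and 0.888% in the control. The remaining 36 collagen genes were far below COL6A1 and COL6A2: COL1A1, COL13A1, COL4A2, COL18A1, COL4A5, COL5A2 and COL4A1 had between 7.51 and 70.1 FPKM in each library. Among genes below the filter no value exceeded 0.5 FPKM or 9 counts.

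**Figure D1:**
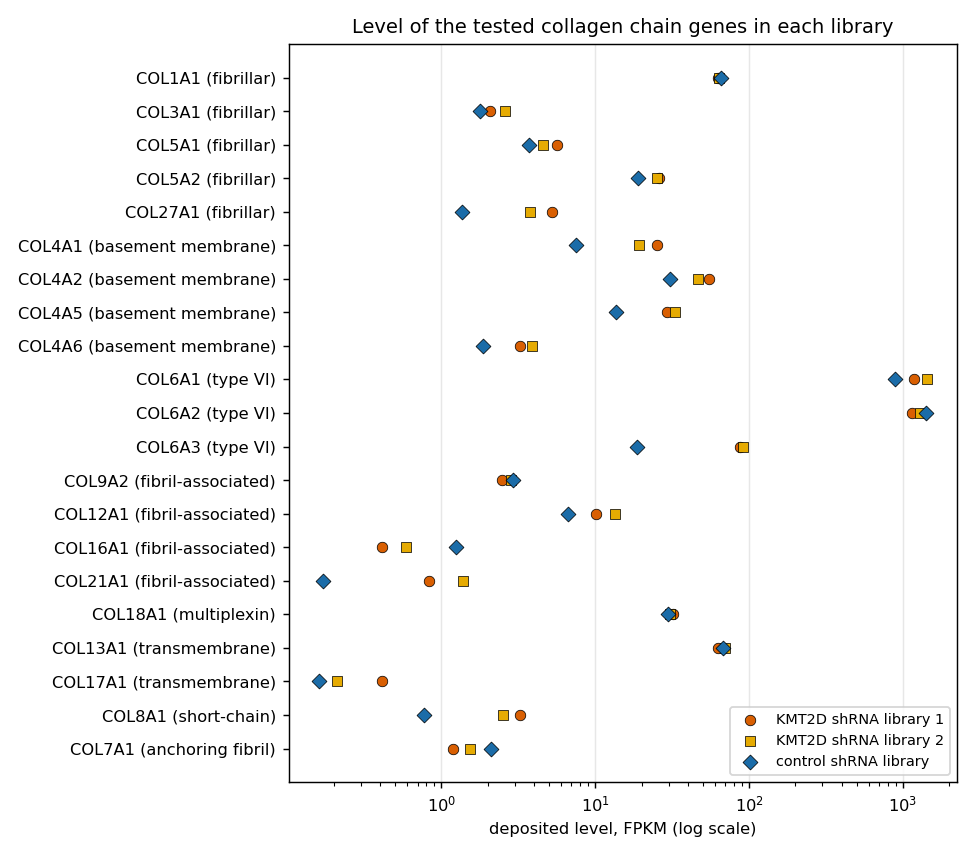
Deposited FPKM (log scale) of the 21 tested collagen chain genes, with 1 symbol per library and the collagen class in brackets. The COL6A1 and COL6A2 values lie near or above 892 FPKM, and the control symbol of COL6A3, at 18.71 FPKM, stands clear of the KMT2D shRNA symbols at 87.20 and 92.02 FPKM.

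Across the family, 10 of the 21 tested collagen genes rose and 2 fell in the libraries labelled KMT2D shRNA (edgeR, adjusted p under 0.05). Those that rose were COL6A3, COL6A1, all 4 tested type IV genes, COL27A1, COL12A1, COL21A1 and COL8A1, and those that fell were COL16A1 and COL7A1. Of all 14016 tested genes 16.5% were called higher and 14.5% lower. The median log2 fold change of the tested collagen genes was 0.54, against -0.01 for all tested genes. It was 0.57 in KMT2D shRNA library 1 and 0.55 in library 2, each set against the same control library. These medians count COL21A1 and COL17A1, which passed the filter only through KMT2D shRNA libraries in which they were high. Without them the middle log2 fold change would be that of COL5A1, 0.44, in place of 0.54.

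Collagen transcripts are long, and fold change followed length in these libraries (Spearman coefficient 0.467 across all tested genes, which are not independent replicates). Within the 21 tested collagen genes alone the coefficient was 0.186. The tested collagen genes had a median length of 5610 bases, against 2962 bases (rounded down) for all tested genes. The 2752 other genes that were among the 200 nearest in length to a tested collagen gene had a median log2 fold change of 0.27, and 30.4% of them were called higher and 6.18% lower. After length adjustment 6 collagen genes were called higher and 2 lower, and the median of all tested collagen genes was 0.30 on the log2 scale. Of all tested genes 8.7% were then called higher and 9.14% lower, and of the genes nearest in length 10.3% and 10.5%. The 6 were COL6A3, COL4A1, COL4A5, COL27A1, COL21A1 and COL8A1. COL21A1, at 4 counts in the control, passed the filter only through the KMT2D shRNA libraries, where it was high. It had to differ to be tested, and supports neither the 10 nor the 6 called higher. COL17A1, which is in the medians but was not called, passed the filter only through KMT2D shRNA library 1. Both COL21A1 and COL17A1 raise the median. Without them the middle value after length adjustment would be that of COL3A1, 0.04, so the 0.30 is no support for a shift of the family. COL4A1, COL4A5 and COL6A3 passed in all 10 tested settings, COL8A1 in all 9 that gave it an adjusted p, and COL27A1 in 9 of 10.

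The other settings called different shares of all genes. With DESeq2 size factors 16.8% of genes were called higher and 14.1% lower, beside 10 and 1 collagen genes, and with plain library totals 13.2% and 9.96%, beside 10 and 1. With a mean of 1 CPM or more as the filter these shares were 15.7% and 13.5%, beside 10 and 1, and without a filter 5.74% and 4.65%, beside 7 and 0. The DESeq2 test gave an adjusted p to 9764 genes and called 7.32% of these higher and 4.71% lower, beside 6 and 0 collagen genes. COL8A1, COL16A1 and COL21A1 were among the collagen genes to which it gave no adjusted p. On FPKM, limma called 5.57% and 6.01% with 1 added before the logarithm, beside 5 and 0, and 3.86% and 3.76% with 0.1 added, beside 4 and 0. With both the length and the GC content trend taken out 4.17% were called higher and 4.96% lower, beside 5 and 1.

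**Figure D2:**
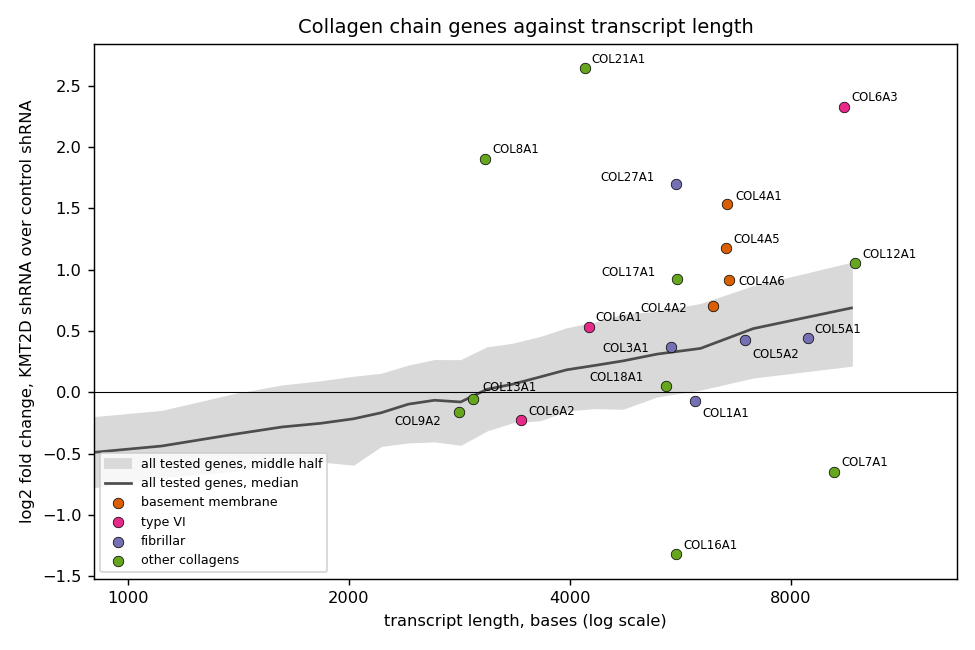
Log2 fold change (KMT2D shRNA over control shRNA) against transcript length in bases (log scale). The dark line and grey band are the median and middle part (25th to 75th percentile) of all tested genes in 20 length bins; points are collagen genes by class. COL6A3, COL21A1, COL8A1, COL27A1, COL4A1, COL4A5, COL4A6 and COL17A1 lie above the band, COL16A1, COL7A1 and COL1A1 below it, and COL3A1, COL5A1 and COL5A2 near the line. COL21A1 and COL17A1 passed the filter only through KMT2D shRNA libraries in which they were high, so their place above the band is no support for a difference.

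Type VI collagen is a trimer of the chains of COL6A1, COL6A2 and COL6A3, and the chain of COL6A3 also yields the signalling fragment endotrophin. COL6A3 (Entrez gene 1293) had 87.20 and 92.02 FPKM in KMT2D shRNA libraries 1 and 2, against 18.71 FPKM in the control, from 4408, 4585 and 955 counts. Both KMT2D shRNA libraries lay far above the control. In such bulk samples, more cells expressing a gene and more RNA per cell cannot be told apart. COL6A3 averaged 873 ± 43.2 CPM (SD, n = 2), which gave 2.33 as its log2 fold change (standard error 0.18; edgeR, adjusted p = 1.05e-14), and its value after length adjustment was 1.71 (edgeR adjusted p = 7.02e-08). KMT2D shRNA library 1 held 4.86 times the COL6A3 of the control (95% interval 4.53 to 5.21), and library 2 held 5.21 times (4.86 to 5.59). These exact intervals cover counting error only, and not the spread between libraries, as each sets 1 library against the control library. Amplified reads are not independent molecules, so the counting error itself may be larger. Of the 200 tested genes nearest to COL6A3 in length, whose log2 fold changes had a median of 0.70, 97.5% had a smaller fold change.

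The partner chains did not follow in step. COL6A1 rose by 0.54 on the log2 scale (standard error 0.14; edgeR, adjusted p = 0.00322), which was no longer called after length adjustment (0.34, edgeR adjusted p = 0.148), in DESeq2 (adjusted p = 0.0562) and in 4 other settings. COL6A2 had 1144 and 1301 FPKM in the KMT2D shRNA libraries, against 1409 FPKM in the control. Both KMT2D shRNA values of COL6A2 were the lower ones, and its log2 fold change of -0.23 (SE 0.14) missed the threshold (edgeR adjusted p = 0.217). Per length, COL6A1 stood at 1.04 and 1.10 times COL6A2 in the KMT2D shRNA libraries and at 0.634 times COL6A2 in the control. COL6A3 stood at 0.0734 and 0.0641 times COL6A1 in the KMT2D shRNA libraries, against 0.0210 times in the control. In counts, which leave out the deposited length of COL6A3 (itself different between libraries), the ratio of COL6A3 to COL6A1 was 3.75 times that of the control in library 1 (95% exact interval 3.49 to 4.03) and 3.25 times in library 2 (3.02 to 3.49). COL6A3 remained the scarcest of the 3 chains in every library. 

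**Figure D3:**
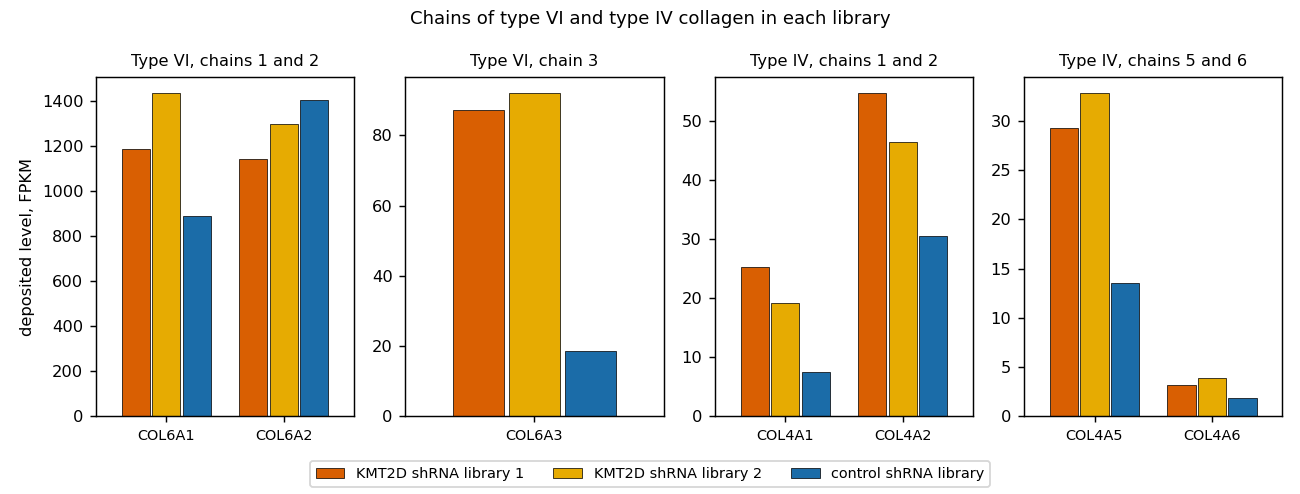
Deposited FPKM (linear axes from 0, scaled separately per panel) of type VI and type IV chains, with 1 bar per library and no error bars. COL6A3 is at 87.20 and 92.02 FPKM in the KMT2D shRNA libraries and 18.71 FPKM in the control, whereas the COL6A2 bar is tallest in the control.

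The stretches upstream of COL6A3 and COL6A2 are shown because these chains of the same trimer differed most. They are the 250 bases before each RefSeq start, on the gene's own strand, in the assembly GRCh38.p14; the counts were made on hg19 and no deposited coordinate was used. Capitals mark the GC box GGGCGG and the CCAAT box CCAAT, each searched on both strands. COL6A3 is at chr2:237414165-237414414 on the minus strand and COL6A2 at chr21:46097862-46098111 on the plus strand.
COL6A3: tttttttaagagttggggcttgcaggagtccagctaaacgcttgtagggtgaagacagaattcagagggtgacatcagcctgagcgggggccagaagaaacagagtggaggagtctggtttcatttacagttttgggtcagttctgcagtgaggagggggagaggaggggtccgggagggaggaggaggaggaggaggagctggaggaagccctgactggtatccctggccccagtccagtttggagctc
COL6A2: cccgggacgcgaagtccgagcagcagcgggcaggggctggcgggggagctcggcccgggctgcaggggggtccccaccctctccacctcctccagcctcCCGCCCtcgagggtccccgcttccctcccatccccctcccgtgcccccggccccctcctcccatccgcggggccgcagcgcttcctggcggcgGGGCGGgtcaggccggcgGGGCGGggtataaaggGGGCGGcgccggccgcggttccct
The window of COL6A2 held 4 GC boxes and that of COL6A3 held 0, and neither held a CCAAT box. Of all 35116 RefSeq windows of this length 42.6% held a GC box and 32.0% a CCAAT box. A match is a description of the letters, not of binding.

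Type IV genes are arranged as head-to-head pairs that share a promoter region: COL4A1 with COL4A2, which make the network found in nearly all basement membranes, COL4A5 with COL4A6, which make a network of some epithelial membranes, and COL4A3 with COL4A4, known from the kidney filter. The 4 tested type IV genes were all called higher, beside 16.5% of all tested genes and 30.4% of the genes nearest in length to the collagen genes. After length adjustment 2 were called higher, beside 8.7% and 10.3%. The median log2 fold change of the 4 was 1.05, or 0.62 after length adjustment. The class summed to 113 and 102 FPKM in the KMT2D shRNA libraries, against 53.6 FPKM in the control. COL4A3 and COL4A4 had at most 3 counts in any library and were not tested.

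COL4A1 (Entrez gene 1282) had 25.22 and 19.15 FPKM in KMT2D shRNA libraries 1 and 2, against 7.51 FPKM in the control, from 860, 649 and 277 counts. Its log2 fold change was 1.54 (standard error 0.20; edgeR, adjusted p = 2.45e-08), or 1.11 after length adjustment (edgeR adjusted p = 0.000163). COL4A2 had 54.70 and 46.45 FPKM in the KMT2D shRNA libraries, against 30.57 FPKM in the control. COL4A2 rose by 0.70 on the log2 scale (standard error 0.17; edgeR, adjusted p = 0.00156), which was no longer called after length adjustment (0.30, edgeR adjusted p = 0.235), with both trends removed and on FPKM. The 2 genes of this pair differed in size of change: the count ratio of COL4A1 to COL4A2 was 1.88 times that of the control in library 1 (95% exact interval 1.60 to 2.20, counting error only) and 1.68 times in library 2 (1.43 to 1.98). Per length COL4A1 stood at 0.461 and 0.412 times COL4A2 in the KMT2D shRNA libraries and at 0.246 times in the control.

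COL4A5 (Entrez gene 1287) had 29.27 and 32.83 FPKM in KMT2D shRNA libraries 1 and 2, against 13.56 FPKM in the control. Its log2 fold change was 1.18 (standard error 0.18; edgeR, adjusted p = 1.94e-06), or 0.75 after length adjustment (edgeR adjusted p = 0.00418). COL4A6 was scarcer, at 3.22 and 3.90 FPKM in the KMT2D shRNA libraries and 1.86 FPKM in the control. COL4A6 rose by 0.92 on the log2 scale (standard error 0.25; edgeR, adjusted p = 0.0038), which was no longer called after length adjustment (0.49, edgeR adjusted p = 0.179), in DESeq2 (adjusted p = 0.265) and in 4 other settings. For this pair the ratio of COL4A5 to COL4A6 was 1.24 times that of the control in library 1 (95% exact interval 0.889 to 1.73) and 1.15 times in library 2 (0.834 to 1.59), intervals that include no difference. 

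The stretch shared by COL4A1 and COL4A2 is shown because it lies between 2 genes that both rose, by unequal amounts, and that of COL4A5 as the other pair. The starts of COL4A1 and COL4A2 lie 126 bases apart in RefSeq (GRCh38.p14). The whole stretch between them, chr13:110307158-110307283, is given on the plus strand, so it runs from the start of COL4A1 to that of COL4A2. The starts of COL4A5 and COL4A6 lie 379 bases apart, and the 250 bases before COL4A5 are at chrX:108439588-108439837 on the plus strand. Capitals mark the same GC and CCAAT boxes.
COL4A1-COL4A2: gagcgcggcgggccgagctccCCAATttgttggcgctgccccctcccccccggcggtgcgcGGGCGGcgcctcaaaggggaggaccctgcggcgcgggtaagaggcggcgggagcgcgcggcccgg
COL4A5: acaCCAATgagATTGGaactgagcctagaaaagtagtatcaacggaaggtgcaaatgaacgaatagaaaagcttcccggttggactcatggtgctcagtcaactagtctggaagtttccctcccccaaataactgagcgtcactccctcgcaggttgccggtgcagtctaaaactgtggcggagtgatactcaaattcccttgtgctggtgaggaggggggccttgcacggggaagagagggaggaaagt
The COL4A1-COL4A2 stretch held 1 GC box and 1 CCAAT box. Of all 35116 RefSeq windows cut to 126 bases, 34.6% held a GC box and 21.1% a CCAAT box. The COL4A5 window held 0 GC boxes and 2 CCAAT boxes, 1 on each strand.

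Among the fibrillar collagens COL27A1 alone passed the threshold. Of 11 listed genes 5 were tested, 1 rose and 0 fell, and their log2 fold changes had a median of 0.43, or -0.03 after length adjustment; 16.5% of all tested genes were called higher. COL27A1 (Entrez gene 85301), a fibrillar collagen known from cartilage, had 5.27 and 3.78 FPKM in KMT2D shRNA libraries 1 and 2, against 1.37 FPKM in the control, from 153, 109 and 43 counts. Both KMT2D shRNA libraries lay above the control, and its log2 fold change was 1.70 (standard error 0.27; edgeR, adjusted p = 3.87e-06), or 1.36 after length adjustment (edgeR adjusted p = 0.000939).

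COL1A1, the main chain of type I collagen, had 63.18 and 63.72 FPKM in the KMT2D shRNA libraries and 65.55 FPKM in the control, so the 3 libraries nearly coincided (log2 fold change -0.07, standard error 0.16; edgeR, adjusted p = 0.791). After length adjustment COL1A1 was at -0.44 (edgeR adjusted p = 0.0611). Its usual partner COL1A2 had 6 and 5 counts in the KMT2D shRNA libraries and 4 in the control, or 0.21 and 0.18 FPKM against 0.13 FPKM. COL1A1 is also known to form trimers without that partner. COL5A1 and COL5A2, chains of the type V collagen that sets fibril width, had log2 fold changes of 0.44 (edgeR adjusted p = 0.0989) and 0.43 (edgeR adjusted p = 0.0568); after length adjustment these were -0.12 and -0.03. COL5A1 had 5.68 and 4.57 FPKM in the KMT2D shRNA libraries and 3.72 FPKM in the control. COL5A2 had 26.09 and 25.32 FPKM in the KMT2D shRNA libraries, against 18.86 FPKM in the control. COL3A1, of type III collagen in skin and vessels, was at 2.07 and 2.61 FPKM in the KMT2D shRNA libraries and 1.78 FPKM in the control (edgeR adjusted p = 0.37).

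**Figure D4:**
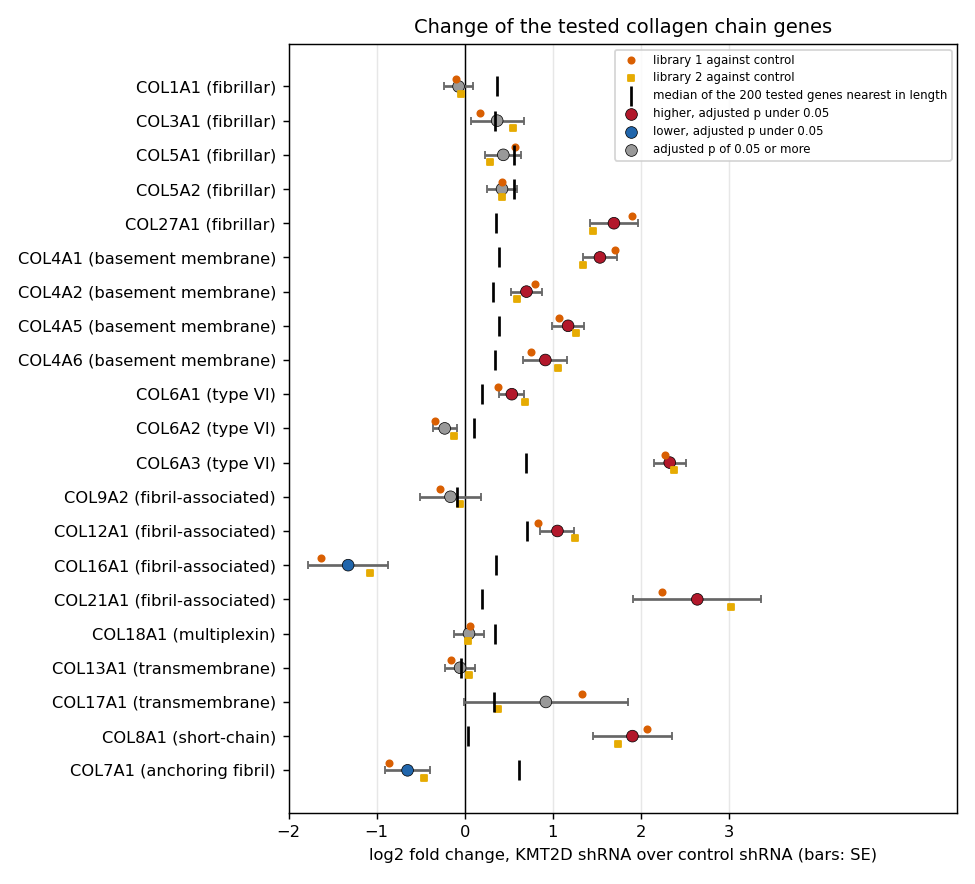
Log2 fold change (KMT2D shRNA over control shRNA) of the 21 tested collagen genes with SE from edgeR (large points, coloured by call). Small points are libraries 1 and 2 each against the control, and black ticks mark the median of the 200 tested genes nearest in length. COL6A3 at 2.33 and COL4A1 at 1.54 stand well to the right of their ticks at 0.70 and 0.39, while the COL5A2 point at 0.43 lies left of its tick at 0.56.

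The tested fibril-associated collagens numbered 4, of which 2 rose and 1 fell. These numbers are too small to set apart from the 16.5% and 14.5% of all tested genes. After length adjustment 1 rose and 1 fell, and with both trends removed 0 rose and 0 fell. COL12A1 (Entrez gene 1303), which coats type I fibrils, had 10.15 and 13.37 FPKM in KMT2D shRNA libraries 1 and 2, against 6.63 FPKM in the control, from 550, 712 and 325 counts. COL12A1 rose by 1.06 on the log2 scale (standard error 0.19; edgeR, adjusted p = 3.05e-05), which was no longer called after length adjustment (0.42, edgeR adjusted p = 0.143), with both trends removed and on FPKM. COL21A1 had 18 and 30 counts in the KMT2D shRNA libraries and 4 in the control. COL21A1 was tested only because it was high in the KMT2D shRNA libraries. Its log2 fold change, 2.64 (standard error 0.73; edgeR, adjusted p = 0.00421), is thus no support for a difference. The value also rests on few reads: library 1 held 4.74 times the control (95% interval 1.56 to 19.2), and library 2 held 8.14 times (2.87 to 31.8). The COL21A1 call was lost with both trends removed (edgeR adjusted p = 0.095), without the filter on low counts and on FPKM. COL16A1, found near fibrils and below epithelia, fell, with 12 and 17 counts in the KMT2D shRNA libraries and 39 in the control (log2 fold change -1.32, standard error 0.45; edgeR, adjusted p = 0.0225). That call was lost in the same settings (edgeR adjusted p = 0.0691 with both trends removed). COL9A2, a cartilage chain, had 36 and 41 counts in the KMT2D shRNA libraries and 46 in the control (edgeR adjusted p = 0.766).

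The table lengths of COL12A1 and COL6A3 also differed between libraries. The deposited length of a gene is a mean that varied between libraries for 0 of 11026 genes with 1 listed transcript and for 5766 of 7305 genes with several. For COL12A1, listed with 2 transcripts, it was 10384 and 10272 bases in KMT2D shRNA libraries 1 and 2, against 8700 bases in the control. That is 19.4% and 18.1% longer, at percentiles 98.7 and 98.6 of the 3504 genes with at least 100 counts in each library and a length that varied. For COL6A3, listed with 5 transcripts, it was 9688 and 9613 bases in the KMT2D shRNA libraries and 9052 bases in the control, or 7.03% and 6.20% longer, at percentiles 93.9 and 92.3. Those 3504 genes were longer by a median of 0.236% and 0.255%, so the 2 collagen genes moved with the general direction. No test was run on these means, and the part of the length trend in them was not tested.

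Among the remaining collagens, COL8A1 (Entrez gene 1295), a short-chain collagen of vessel walls and of the membrane behind the cornea, rose. It had 3.25 and 2.52 FPKM in the KMT2D shRNA libraries, against 0.77 FPKM in the control, from 52, 40 and 13 counts. Its log2 fold change of 1.91 (standard error 0.45; edgeR, adjusted p = 0.000839) was 1.90 after length adjustment (edgeR adjusted p = 0.00332). COL7A1, which builds the anchoring fibrils below epithelia, had 57 and 73 counts in the KMT2D shRNA libraries, against 109 in the control. COL7A1 fell by 0.65 on the log2 scale (standard error 0.26; edgeR, adjusted p = 0.0491), close to the threshold; the call was lost in 7 of 9 alternatives with a test but had a fold change of -1.25 after length adjustment (edgeR adjusted p = 0.00106).

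COL18A1, the source of endostatin, had 32.03 and 30.81 FPKM in the KMT2D shRNA libraries and 29.91 FPKM in the control (log2 fold change 0.05, standard error 0.17; edgeR, adjusted p = 0.858). COL13A1, a transmembrane collagen known from the neuromuscular junction, had 62.67 and 70.09 FPKM in the KMT2D shRNA libraries and 67.84 FPKM in the control, which lay between them (edgeR adjusted p = 0.855). COL17A1, of hemidesmosomes, had 12 and 6 counts in the KMT2D shRNA libraries and 5 in the control (edgeR adjusted p = 0.48). It passed the filter only through KMT2D shRNA library 1, where it was highest. Of the 18 genes below the filter, 12 had at most 3 counts in every library. The other 6 were COL1A2, COL2A1, COL8A2, COL9A3, COL11A2 and COL24A1, with COL2A1 at 4 and 1 counts in the KMT2D shRNA libraries and 9 in the control. KMT2D shRNA library 2 held 0.121 times the COL2A1 of the control (95% exact interval 0.00275 to 0.870, counting error only), and library 1 held 0.468 times (0.105 to 1.68). COL2A1 is 1 of 18 untested genes and the intervals are not adjusted for that number, so no change was read from them. COL6A5, COL6A6, COL9A1, COL20A1 and COL23A1 were not analysed here.

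Genes that act on collagen were read from 6 lists, whose counts stand beside 16.5% of all tested genes called higher and 14.5% lower, or 8.7% and 9.14% after length adjustment. Of the genes nearest in length to the collagen genes 30.4% were called higher and 6.18% lower. Among the basement membrane partners 8 of 13 tested rose and 1 fell, the median being 0.75 on the log2 scale, or 0.39 after length adjustment, where 3 rose and 2 fell. NID2, a nidogen that links laminin to type IV collagen, rose by 1.41 on the log2 scale (standard error 0.24; edgeR, adjusted p = 6.43e-06), and LAMA4, a laminin chain, by 1.37. HSPG2, the proteoglycan perlecan, rose by 1.24, or 0.41 after length adjustment (edgeR adjusted p = 0.0921). The member that fell was AGRN, which encodes agrin, by 0.66 on the log2 scale (edgeR adjusted p = 0.000816; named after its value was seen).

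Of 7 tested collagen receptor genes 3 rose and 0 fell, beside 16.5% and 14.5% of all genes (median log2 fold change 0.22, or -0.16 after length adjustment, where 2 rose). ITGA1, whose integrin prefers type IV collagen, had 121 and 118 CPM in the KMT2D shRNA libraries, against 25.8 CPM in the control. ITGB1, its beta subunit, rose by 1.21 on the log2 scale and ITGA2, whose integrin prefers type I collagen, by 0.85 (edgeR adjusted p = 1.43e-07 and 0.000164); after length adjustment ITGA2 was at 0.33 (edgeR adjusted p = 0.183).

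Genes for propeptide removal and crosslinking rose in 5 of 14 tested cases and fell in 1, beside 16.5% and 14.5% of all genes (median 0.47 on the log2 scale), and after length adjustment 1 rose and 1 fell, near the 8.7% and 9.14% of all genes. PXDN, peroxidasin, which crosslinks type IV collagen, had 659 and 830 CPM in the KMT2D shRNA libraries, against 300.1 CPM in the control (log2 fold change 1.31, standard error 0.18; edgeR, adjusted p = 8.45e-08; 0.87 and edgeR adjusted p = 0.00125 after length adjustment). Of the proteases that remove the C-terminal propeptide, TLL1 rose by 1.41 and BMP1 fell by 0.73 on the log2 scale (edgeR adjusted p = 0.00686 and 0.00531). LOXL2, a lysyl oxidase, rose by 0.61. The calls of TLL1 and LOXL2 were lost after length adjustment (edgeR, for LOXL2 adjusted p = 0.0602).

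Enzymes and chaperones of chain modification were called about as often as all genes (16.5% higher and 14.5% lower): of 16 tested 2 rose and 3 fell (median log2 fold change -0.17), and 2 rose and 0 fell after length adjustment. COLGALT2, a collagen galactosyltransferase, rose by 1.62 and the prolyl 3-hydroxylase gene P3H2 by 1.33 on the log2 scale (edgeR adjusted p = 0.00372 and 0.00148). PPIB, cyclophilin B, fell by 0.70 and P4HA2, a prolyl 4-hydroxylase subunit, by 0.47 (edgeR adjusted p = 0.00065 and 0.0493), as did P4HB, the other subunit of that enzyme, by 0.44 (edgeR adjusted p = 0.0197; named after its value was seen). Of 8 secretion genes SEC23A and SEC24D, parts of the vesicle coat that carries procollagen, rose by 0.86 and 0.58 and 0 fell. After length adjustment the call of SEC24D was lost (edgeR adjusted p = 0.124), and 1 secretion gene rose and 1 fell. Among 5 tested collagen-cleaving proteases 0 rose and 1 fell, a number too small to set apart from the 16.5% and 14.5% of all genes: the collagenase gene MMP13 had 8.79 and 9.07 CPM in the KMT2D shRNA libraries, against 29.8 CPM in the control (log2 fold change -1.74, edgeR adjusted p = 2.35e-07).

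**Figure D5:**
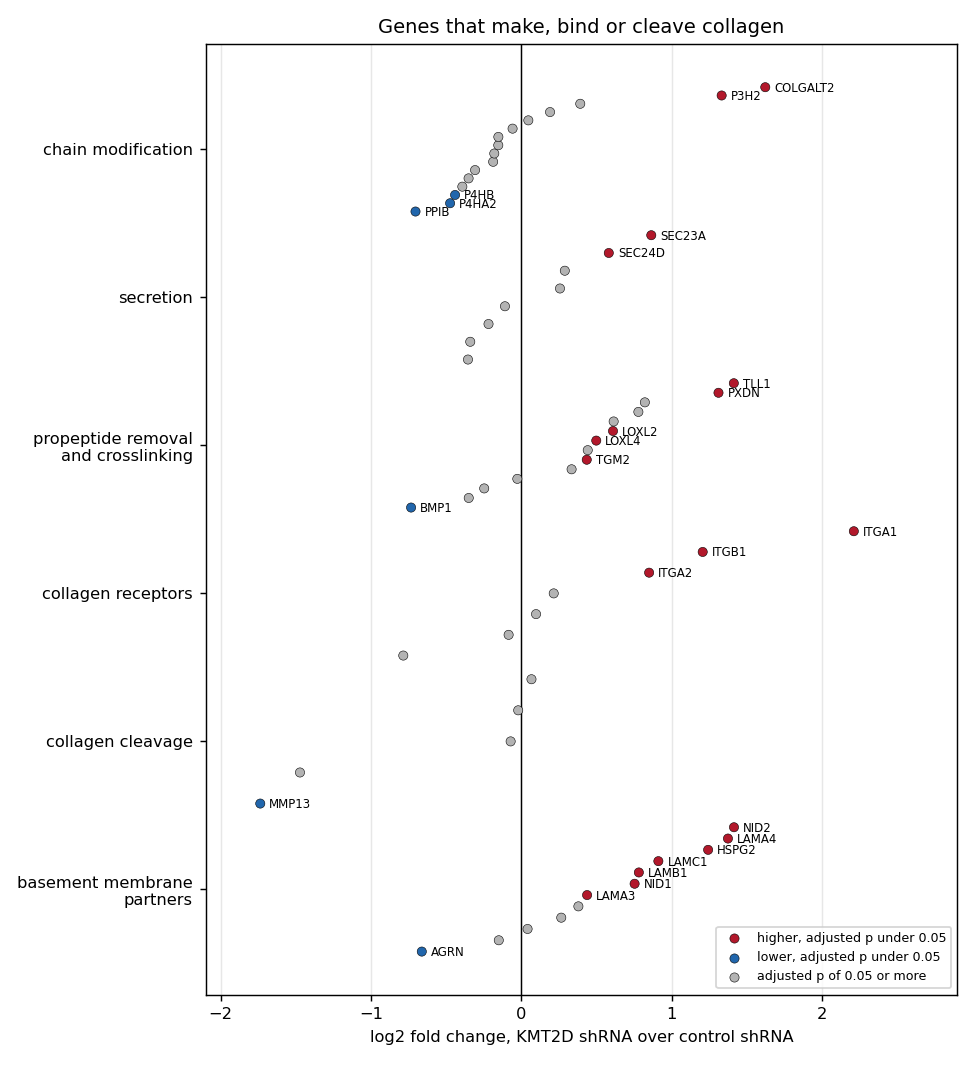
Log2 fold change (KMT2D shRNA over control shRNA) of each tested gene on 6 lists of genes that make, bind or cleave collagen; each point is a gene, coloured by its call, genes past the threshold are named, and 1 gene of the basement membrane list is not drawn. Receptors ITGA1, ITGB1 and ITGA2 lie between 0.85 and 2.21, and the only coloured point among cleavage genes is MMP13 at -1.74.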

How the data were processed

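Libraries were made from poly(A)-selected, fragmented RNA with random priming and PCR, per the labels' protocols, and were read on the BGISEQ-500 platform that the series' design text names. The protocols name no step that marks strand, so reads of overlapping or antisense genes cannot be separated. The build hg19 and the tools HISAT and Bowtie2 are listed per the submitters' processing notes. Their roles and versions, and the counting tool, were not stated. The authors deposited expected counts (estimated reads per gene, not normalized) and FPKM (scaled by transcript length and library total), per the file headers. A gene left out of a table was taken as 0.

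Tables were joined on Entrez identifiers and named from RefSeq (GRCh38.p14, names only; 18214 of 18331 matched directly and 28 through a transcript). Expected counts were rounded and tested with edgeR 4.0.16 in R 4.3.3: default filter by group, TMM scaling, quasi-likelihood F test on group, Benjamini-Hochberg adjustment over 14016 genes at 0.05, with 1 residual degree of freedom. SE values derive from the F statistic. A count of 3 corresponds to 0.582, 0.586 and 0.540 CPM in KMT2D shRNA libraries 1 and 2 and the control. Intervals are exact (Clopper-Pearson, or conditional for ratios of chains) at 95%. The length trend was a lowess curve (span 0.3) of each library's log2 ratio to the control, removed through offsets; the script was tested on simulated data. Alternatives used DESeq2 1.42.0 and limma 3.58.1 on log2(FPKM + 1) or log2(FPKM + 0.1). Named genes were all tested collagen genes and, per list, up to 4 members past the threshold with the largest change. Members and lists were chosen with earlier results of these data known. 1 gene that this rule names among the basement membrane partners is not reported here, though it stays in the counts of its list.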

Additional observations from a re-analysis of the deposited data

How the results depend on the processing

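No paired analysis was possible because the control library carries no number and each group would share fewer than 2. The count of collagen genes called higher, 10, was the same count with DESeq2 size factors, library totals or a mean of 1 CPM or more, and 7 without a filter; it was 6 in DESeq2, 5 and 4 with limma on log2(FPKM + 1) and log2(FPKM + 0.1), 6 with the length trend removed and 5 with length and GC trends removed. The count called lower, 2, was 1 with DESeq2 size factors, library totals, a mean of 1 CPM or more or both trends removed, and 0 without a filter, in DESeq2 and in both limma fits. Over all genes 4352 were called, against 1897 without a filter, 1175 in DESeq2, 1623 and 1068 in the limma fits (same order), 2500 with the length trend removed and 1279 with both trends removed; 5711 genes had an unadjusted p under 0.05 in edgeR. The collagen median log2 fold change, 0.54, was 0.44 without a filter (39 genes), at a mean of 1 CPM (23 genes) and in DESeq2, 0.43 with limma on log2(FPKM + 1), 0.30 with the length trend removed and 0.37 with both. Leaving out either KMT2D shRNA library, which leaves 1 against 1 and no test, gave 0.54 to 0.57. COL21A1 and COL17A1, which passed the main filter only through KMT2D shRNA libraries, are in all of these medians. Among the tested collagen genes, directions turned for these, none past the threshold in either setting: with the length trend removed COL18A1 was at -0.27, COL5A1 at -0.12 and COL5A2 at -0.029, and with both trends removed COL13A1 was at 0.12, COL18A1 at -0.033, COL5A2 at -0.074 and COL9A2 at 0.084; without KMT2D shRNA library 1 COL13A1 was at 0.045, with no test. KMT2D, at 0.29, was at -0.69 after length adjustment (edgeR, adjusted p = 0.00701). The causes were not tested. Removing the length trend also lowered edgeR's prior degrees of freedom to 24.4, against 45.7. The 18 genes below the filter had at most 9 counts in any library, and no change was read from them.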

Other observations

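In the RefSeq promoter table, 29 of the 39 collagen genes had an entry, 16 of the tested genes among them. A GC box was in the 250 bases before the start of 11 of these 16, and a CCAAT box in 5; among the 10 genes that rose 8 had an entry, of which 5 held a GC box and 4 a CCAAT box. These counts are a description, beside 42.6% and 32.0% of all windows.

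The antisense gene COL4A2-AS1 had 17 and 13 counts in KMT2D shRNA libraries 1 and 2 and 11 in the control, while COL4A2 had 1784 and 1505 counts in the KMT2D shRNA libraries and 1078 in the control. The pseudogene COL6A4P2 had 10 and 4 counts in the KMT2D shRNA libraries and 8 in the control.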
